A study of Mus musculus with 6 samples.

Results

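Spp1, which encodes the secreted glycoprotein osteopontin, was examined together with the genes of its cell-surface receptors: Cd44, the integrin alpha subunit genes Itgav, Itga4, Itga5, Itga8 and Itga9, and the beta subunit genes Itgb1, Itgb3 and Itgb5. These 10 genes were taken by NCBI gene number from a table of 21117 genes, and all 10 were found. Poly(A) RNA of aortic tissue had been sequenced from untreated mice aged 32 weeks, 3 wild-type (WT) samples and 3 samples of the genotype Fbn1C1041G/+. The mutant allele is a heterozygous missense change in the gene of fibrillin-1 that is used as a model of Marfan syndrome, and both groups shared the age and the absence of treatment. The tissue was taken whole, so a value is a sum over muscle, adventitia, fat, nerve and blood-derived cells, and fewer cells of a type cannot be told apart from less RNA per cell.

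Osteopontin is a matricellular protein: it is secreted into the matrix, where it signals to cells rather than forming fibres. Its arginine-glycine-aspartate tripeptide (RGD) is bound by integrins that hold the alpha v, alpha 5 or alpha 8 subunit, and the neighbouring SLAYGLR sequence of the mouse protein, laid open by thrombin cleavage, is bound by integrins with the alpha 4 or alpha 9 subunit. Integrins are obligate pairs of an alpha and a beta chain, and CD44 is a single-chain receptor best known for binding hyaluronan. In arteries osteopontin is made by macrophages, by smooth muscle cells that leave the contractile state and by fibroblasts. The 2 integrin sites lie side by side in the coding sequence. They are shown because the receptors are grouped below by the site that they bind, and the capitals mark the 30 bases, codons 144 to 153 of an open reading frame of 294 codons, that encode RGD and SLAYGLR in the GRCm38 reference transcript:

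Spp1 coding stretch: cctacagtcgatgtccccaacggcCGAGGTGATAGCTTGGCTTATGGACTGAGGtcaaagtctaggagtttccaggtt

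The reading frame held the RGD triplet once. The promoter of Spp1 is shown because transcription factors known to act on it are described below. The table of RefSeq promoters of build GRCm38.p6 holds 9 of the 10 genes, all but Itgb3, and gives Spp1 at 2 start sites. The upstream one, chr5:104434861-104435160 on the plus strand, runs from 250 bases before the start to 50 bases after it. Capitals mark matches, on either strand, to TGTGGT, a core of Runx sites, and to CANNTG, the E-box, and these matches do not overlap:

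Spp1 promoter: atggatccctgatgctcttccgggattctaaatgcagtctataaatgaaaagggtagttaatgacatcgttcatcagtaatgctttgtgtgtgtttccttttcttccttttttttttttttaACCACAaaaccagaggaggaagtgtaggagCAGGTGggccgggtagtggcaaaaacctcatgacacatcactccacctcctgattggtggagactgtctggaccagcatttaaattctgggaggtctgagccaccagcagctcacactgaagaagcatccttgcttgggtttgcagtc

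It held 1 match to TGTGGT, found in 16.8% of all 32851 promoters of this length, 1 match to CANNTG, found in 72.3%, and no match to the AP-1 letters TGANTCA, found in 7.81%. At the second Spp1 start site there were 2 matches to CANNTG and none to TGTGGT or TGANTCA. Of the 8 receptor genes with a promoter in that table, Itga4 also held a match to TGTGGT and Itga9 held a match to TGANTCA. Matches to CANNTG lay in the promoters of Itga4, Itga5, Itga8, Itga9 and Itgb5. A match is a stretch of letters and not evidence that a factor binds there.

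Levels are given in FPKM, fragments scaled by transcript length and by the number of mapped fragments, a scale on which genes can be compared with each other. From the spacing of low values, depth was estimated at 13950000 to 16720000 fragments for the WT libraries and 14470000 to 16980000 for the mutants. By this estimate the Spp1 values rested on about 124 to 141 fragments in WT and 248 to 1078 in mutants. WT replicate 3 had the lowest values for GC-rich transcripts (correlation of its deviation with GC content across genes -0.31, against -0.14 to 0.24 elsewhere). This correlation was also negative in mutant replicates 2 and 3 (-0.11 and -0.14), and it was positive in the other libraries (0.19 to 0.24). In Fbn1C1041G/+ replicate 1, transcripts of 4000 bases or more lay below their mean (median deviation -0.14 on the log2 scale, against -0.085 to 0.13 in the other libraries) and those under 1500 bases above it (0.18). Smooth muscle markers summed to 9159 to 10729 FPKM (WT) and 9877 to 12055 FPKM (mutants), with the smooth muscle actin gene Acta2 at 4674 FPKM or more in every library. Fibroblast markers came to 1417 to 1552 FPKM (WT) and 1438 to 1794 FPKM (mutants), and endothelial markers to 238.2 to 383.0 FPKM and 239.5 to 312.6 FPKM. Markers of heart muscle were higher in mutants (172.4 to 467.1 FPKM, against 41.7 to 62.8), and chromaffin and neuronal markers were lower (131.4 to 252.9 FPKM, against 1306 to 1480). Adipocyte markers came to 3288 to 6313 FPKM (WT) and 4129 to 6597 FPKM (mutants), mesothelial markers to 1.53 to 7.85 and 6.94 to 18.2, and osteogenic and chondrogenic markers to 9.53 to 20.6 and 16.8 to 20.4, with Bglap, the osteocalcin gene, listed at 0 in 5 of the 6 libraries. Among the defining genes, Myh6 of heart muscle was at 0.42 to 0.85 FPKM (WT) and 7.04 to 40.8 FPKM (mutants), and Th of catecholamine-producing cells at 429.3 to 500.4 and 36.7 to 75.2. Pdgfra of fibroblasts was at 8.72 to 14.3 FPKM, Pecam1 of endothelium at 132.5 to 231.6, Adipoq of fat at 309.3 to 852.0 and Msln of mesothelium at 0.06 to 4.51 over the 6 libraries. The parts that these differences in tissue make-up play in the values below were not tested, except where a measurement is given.

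Spp1 had the largest difference between the groups among the 10 genes. It stood at 6.01, 5.40 and 6.16 FPKM in the 3 WT libraries, and the 3 mutant libraries held 43.9, 11.8 and 19.5 FPKM, in replicate order. Every mutant lay above every WT library, and replicate 1 was far the highest of the mutants. The WT values lay within a coefficient of variation of 6.87%, the mutant values within 66.8%. Relative to the WT mean the 3 mutants were at 7.50, 2.02 and 3.33 times its level. Within its own library, Spp1 ranked above 57.7% to 59.3% of all genes in WT and above 90.9%, 71.7% and 82.0% in the mutants. The log2 fold change was 1.73 ± 0.41 (SE; 95% interval 0.76 to 2.71), yet with a limma adjusted p of 0.0621 it missed the threshold of 0.05. With the sign kept, it lay above that of 99.6% of the 13438 genes tested. This rank counts lowered genes as below Spp1, also those with a larger change in size, such as Th at -2.94. The adjusted p was 0.0464 without Fbn1C1041G/+ replicate 1 (log2 fold change 1.24), 0.0218 without replicate 2 of that genotype (2.15) and 0.0417 after a correction for transcript length (1.75). It was 0.0971 to 0.191 without any other 1 of the libraries, 0.0685 after a correction for GC content and 0.104 with no filter on low values. Of 18 alternative settings, 13 left Spp1 uncalled.

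None of the 10 genes was called in either direction at an adjusted p under 0.05 (limma), where 0.744% of all genes tested were called higher, 4.85% lower and 5.6% either way. Spp1 alone had an unadjusted p under 0.05, as did 15.2% of all genes. Spp1 and Itga4 were the 2 genes whose mutant values all lay above the WT values, a pattern found in 6.85% of all genes, and none showed the opposite pattern, found in 13.1%. The median log2 fold change was 0.19 over the 10 genes, against -0.0036 over all genes tested.

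**Figure D1:**
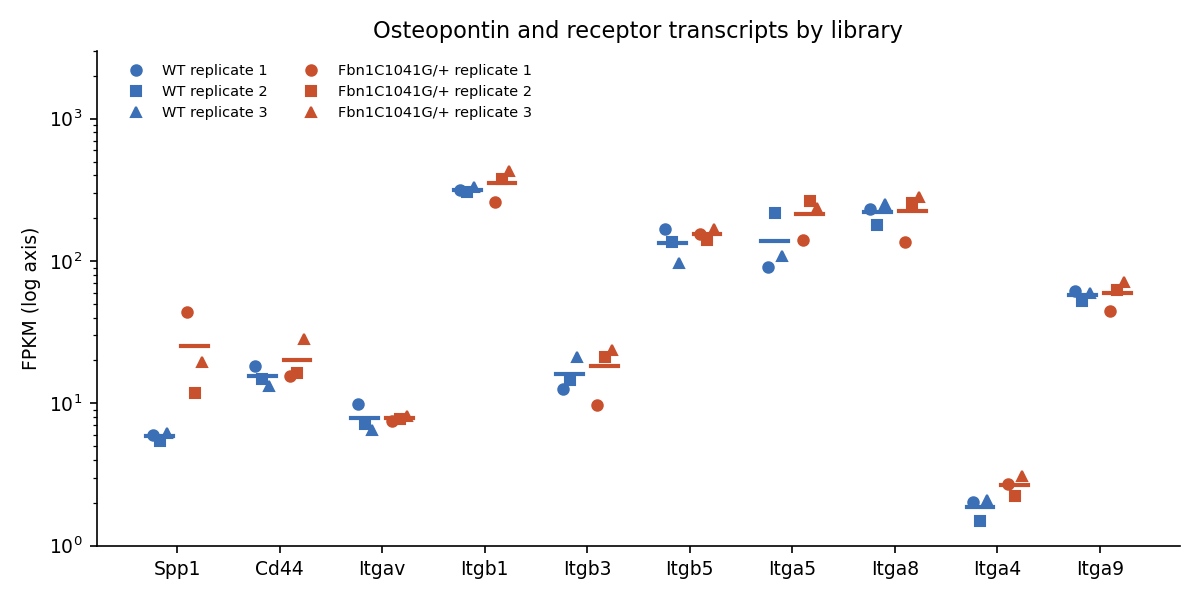
FPKM of Spp1 and its 9 receptor genes (log axis) in 3 WT libraries (blue) and 3 Fbn1C1041G/+ libraries (red), with a marker shape for each replicate number and a bar at the group mean. Spp1 is the gene with the widest gap, 5.40 to 6.16 FPKM against 11.8 to 43.9 FPKM, while the receptor groups overlap except for Itga4.

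The receptors spanned a wide range of levels, and their order was alike in both genotypes. In WT, Itgb1 was highest at 316.3 FPKM (mean, n = 3), followed by Itga8 at 221.0, Itga5 at 138.4 and Itgb5 at 133.1, of which neighbouring genes overlapped in range except Itgb1 and Itga8. Itga9 (57.8 FPKM) lay apart from its neighbours, Itgb3 (16.1) and Cd44 (15.5) overlapped, and Itgav (7.86), Spp1 (5.86) and Itga4 (1.87) each lay apart. In Fbn1C1041G/+ samples the receptors kept this order, except that Cd44 (20.0 FPKM) stood above Itgb3 (18.2) with overlapping ranges. Spp1 was ninth of the 10 in WT, and sixth in mutants at 25.1 FPKM, where its range overlapped that of Cd44.

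Itgav encodes the alpha v chain, which pairs with the beta 1, beta 3 and beta 5 chains at the RGD site. It stood at 9.87, 7.17 and 6.54 FPKM in WT and 7.50, 7.82 and 8.20 FPKM in mutants. The mutant values lay inside the WT range, and the log2 fold change was 0.014 ± 0.17 (SE; 95% interval -0.38 to 0.41; limma adjusted p = 0.990), with a sign that turned without WT replicate 2 (-0.035), WT replicate 3 (-0.093) or mutant replicate 3 (-0.015).

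Itgb3, the beta 3 chain that is known from platelets, osteoclasts and migrating smooth muscle, stood at 12.6, 14.5 and 21.2 FPKM in WT and 9.81, 21.3 and 23.7 FPKM in mutants. Its lowest and highest values of the 6 were both in mutants, and the log2 fold change was 0.12 ± 0.34 (SE; adjusted p = 0.947 from limma), turning negative without WT replicate 1 or mutant replicate 2 or 3. Of the platelet markers, Gp1bb was at 9.01, 8.46 and 1.38 FPKM in WT and 5.16, 3.50 and 2.90 FPKM in mutants. Gp9 was at most 0.36 FPKM and Gp6 at most 0.06 FPKM in any library, and Itga2b, the platelet partner of the beta 3 chain, was 0.74 to 1.28 FPKM. The summed platelet list was 26.7 to 31.2 FPKM (WT) and 27.0 to 64.1 FPKM (mutants), mostly from Pf4, which macrophages also express.

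Itgb5, the beta 5 chain, another partner of alpha v, was much more abundant, at 167.4, 135.6 and 96.3 FPKM in WT and 155.8, 141.0 and 168.7 FPKM in mutants. WT replicate 3 was the lowest of the 6. The log2 fold change was 0.25 ± 0.22 (SE; adjusted p = 0.746), and 0.038 without WT replicate 3.

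Itgb1, the beta 1 chain, is the shared partner of alpha 4, alpha 5, alpha 8 and alpha 9 and one of those of alpha v. It stood at 313.3, 304.0 and 331.4 FPKM in WT and 259.6, 378.0 and 427.8 FPKM in mutants, so that the mutants lay on both sides of a narrow WT range. The log2 fold change was 0.14 ± 0.21 (SE; adjusted p = 0.876).

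Itga5, the alpha chain of the fibronectin receptor, had the widest spread of the receptors in WT (coefficient of variation 49.4%). It was at 90.8, 216.8 and 107.7 FPKM in WT and 139.7, 263.7 and 236.5 FPKM in mutants. WT replicate 2 lay above mutant replicate 1, and the log2 fold change of 0.68 ± 0.38 (SE; 95% interval -0.21 to 1.56; adjusted p = 0.513) became 1.05 without WT replicate 2 (adjusted p = 0.188). Replicate number 2 held the highest value in each genotype.

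Itga8, whose product pairs with beta 1 and is abundant in contractile vascular smooth muscle, was at 231.3, 180.0 and 251.7 FPKM in WT and 135.6, 256.2 and 280.4 FPKM in mutants. The groups overlapped fully, with mutant replicate 1 lowest and mutant replicate 3 highest. The log2 fold change was -0.035 ± 0.30 (SE; adjusted p = 0.988 from limma), but 0.0067 with median-ratio scaling and 0.29 without mutant replicate 1.

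Itga4 and Itga9 encode the alpha chains of the receptors for the SLAYGLR site. Itga4, the leukocyte alpha chain that also binds VCAM1, was the lowest of the 10 genes, at 2.02, 1.48 and 2.11 FPKM in WT and 2.72, 2.22 and 3.10 FPKM in mutants. Every mutant value lay above every WT value, by a margin of 2.22 against 2.11 FPKM. Its log2 fold change on the log2(FPKM + 1) scale was 0.36 ± 0.17 (SE; 95% interval -0.040 to 0.76; adjusted p = 0.400), and 0.52 with a pseudocount of 0.01. T and B cell markers, cells that carry alpha 4, summed to 4.45 to 7.40 FPKM in WT and to 36.6, 10.9 and 57.0 FPKM in mutant replicates 1 to 3, with Cd3e, a T cell receptor chain, at 0.21 to 0.88 and 0.81 to 3.71 FPKM. Their part in the Itga4 values was not tested.

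Itga9 stood at 61.7, 52.6 and 59.2 FPKM in WT and 44.7, 62.5 and 71.4 FPKM in mutants, a log2 fold change of 0.017 ± 0.20 (SE; adjusted p = 0.990). As with Itgb1, the mutants lay on both sides of the WT values.

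Cd44 was at 18.3, 14.9 and 13.3 FPKM in WT and 15.4, 16.3 and 28.3 FPKM in mutants. Mutant replicate 3 was the highest of the 6 and the other mutants lay inside the WT range. The log2 fold change was 0.31 ± 0.25 (SE; 95% interval -0.28 to 0.90; adjusted p = 0.727), and 0.042 without mutant replicate 3. The table gives 1 value for the 6 Cd44 transcripts that it lists, so its splice variants could not be compared.

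Taking the 9 receptors as a group, 8 had log2 fold changes between -0.5 and 0.5, and the 95% intervals of 8 lay within a 2-fold change in either direction, Itga5 being the exception. The spread among mutants was wider than among WT for 5 of them, Itgb1 (coefficient of variation 24.3% against 4.4%), Itga9 (22.9% against 8.18%), Itga8, Cd44 and Itgb3. Mutant replicate 3 held the highest value of 7 of the 10 genes and mutant replicate 1 the lowest value of 4, Itgb1, Itgb3, Itga8 and Itga9. Itga4 and Itgav, with the longest transcripts of the 10 at 9767 and 7054 bases, did not have their lowest value over all libraries in mutant replicate 1. Among the mutants alone, Itgav was lowest in replicate 1 (7.50 FPKM, against 7.82 and 8.20) and Itga4 was not (2.72 FPKM, against 2.22 and 3.10). After a correction for transcript length the log2 fold changes of Itgb1, Itgb3, Itga8 and Itga9 were 0.22, 0.13, -0.026 and 0.069, none of them called, and that of Spp1 was 1.75 in place of 1.73. These are group differences and do not show mutant replicate 1 by itself. The part of transcript length in its low values was not tested.

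**Figure D2:**
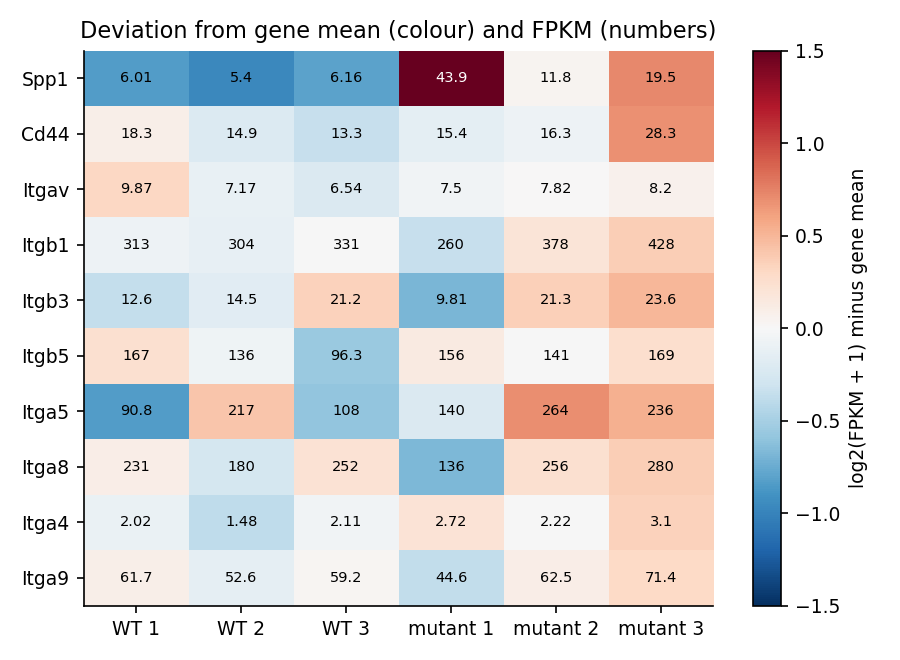
Deviation of each gene from its own mean over 6 libraries in log2(FPKM + 1), shown as colour, with the FPKM printed in each cell, for the 10 genes (rows) and 6 libraries (columns). Mutant replicate 1 combines the highest Spp1 (43.9 FPKM) with the lowest Itgb1, Itgb3, Itga8 and Itga9, and mutant replicate 3 is highest for 7 genes.

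Because integrin chains work as pairs, the make-up of the pool was also read within each library, where scaling cancels. Of the summed FPKM of 8 beta genes, Itgb1 made up 61.4%, 64.1% and 71.6% in WT and 57.2%, 67.3% and 65.8% in mutants, a difference of -2.24 percentage points (exact 2-sided permutation p = 0.7, where 3 against 3 samples cannot give a p below 0.1). Itgb5 held 20.8% to 34.3% and Itgb3 2.16% to 4.57% of the beta sum over the 6 libraries. The log2 ratio of Itgb3 to Itgb5 was -3.74, -3.22 and -2.19 in WT and -3.99, -2.73 and -2.83 in mutants (exact permutation p = 0.9), with a difference of -0.14 that became 0.30 without WT replicate 3 and 0.27 without mutant replicate 1. Of the sum over 18 alpha genes, Itga8 made up 29.8% to 46.4% and Itga5 17.3% to 35.9%. Itgav made up 1.88%, 1.19% and 1.21% in WT and 1.65%, 1.04% and 1.08% in mutants (exact permutation p = 0.5). The log2 ratio of the SLAYGLR-binding alpha genes (Itga4 and Itga9) to the RGD-binding ones (Itgav, Itga5 and Itga8) was -2.38, -2.90 and -2.58 in WT and -2.58, -3.03 and -2.82 in mutants (difference -0.19, exact permutation p = 0.4). Itga4 held 0.245% to 0.598% of the alpha sum and Itga9 8.32% to 11.7%, so this ratio rested mostly on Itga9, Itga5 and Itga8. For each of these 4 measures the groups overlapped, and after Benjamini-Hochberg adjustment over the 4 each exact p was 0.9.

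**Figure D3:**
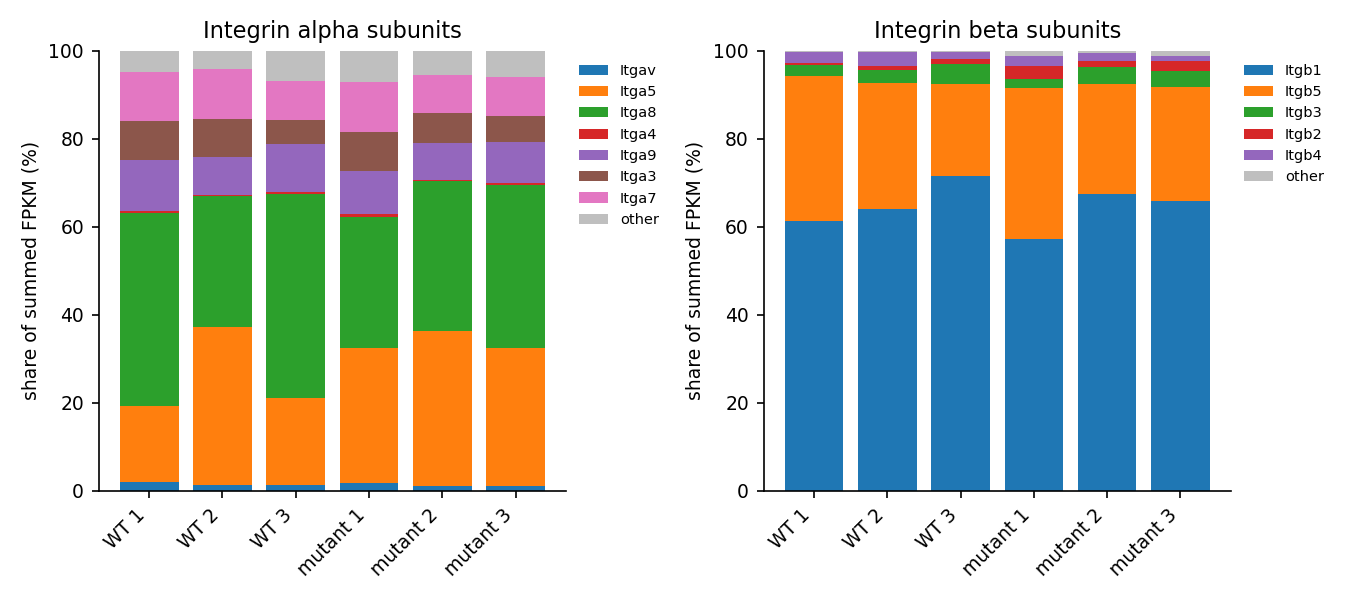
Share of summed FPKM (%) of the integrin alpha genes (left) and beta genes (right) in each of the 6 libraries. Itga8 and Itga5 hold most of the alpha sum and Itgb1 and Itgb5 most of the beta sum in both genotypes, and Itgb3 stays between 2.16% and 4.57%.

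The other integrin genes, which do not encode classic osteopontin receptors, numbered 18. Of these 11 were tested, 1 rose, none fell and 10 were not called, with a list median log2 fold change of 0.15. Itgb2, the common beta chain of the leukocyte integrins, was at 2.85, 4.35 and 5.21 FPKM in WT and rose to 13.3, 7.85 and 14.7 FPKM in mutants (means 4.14 ± 1.19 and 11.9 ± 3.60, SD; log2 fold change 1.32; limma adjusted p = 0.0361). The call ended without WT replicate 1 or 2 or mutant replicate 1 or 3 (adjusted p 0.108 to 0.141) and with no filter on low values (0.0674). Itgb7, the lymphocyte beta chain that pairs with alpha 4, was at 0.89, 1.58 and 1.37 FPKM in WT and 4.94, 2.45 and 7.39 FPKM in mutants (log2 fold change 1.30; adjusted p = 0.0733). Itgam, the myeloid alpha M chain, and Itgal, the lymphocyte alpha L chain, had log2 fold changes of 1.21 and 1.16 and were not called (adjusted p = 0.111 and 0.146). In 5 of the 11 genes tested, these 4 and Itga11, a collagen receptor chain of fibroblasts, the mutant values all lay above the WT values, as in 6.85% of all genes. Itga11, named after its values were seen, was at 2.08, 1.60 and 1.59 FPKM in WT and 2.40, 2.60 and 3.92 FPKM in mutants (log2 fold change 0.51; adjusted p = 0.243 from limma).

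**Figure D4:**
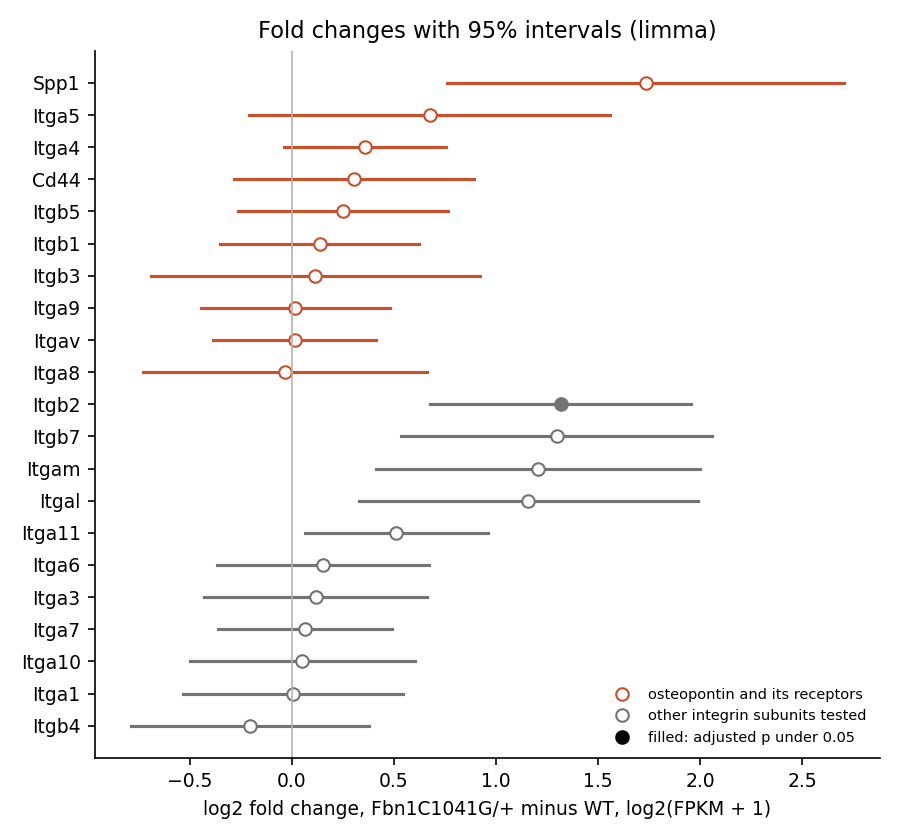
Log2 fold change (Fbn1C1041G/+ minus WT, on log2(FPKM + 1)) with its 95% interval from limma, for the 10 osteopontin and receptor genes (red) and the 11 other integrin genes tested (grey). A filled point marks an adjusted p under 0.05, which Itgb2 reaches, while Spp1 at 1.73 has the largest value without reaching it.

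Genes whose profile over the 6 libraries was most like that of Spp1 were sought among 12877 tested genes with a name, by the root mean square difference between gene-centred log2 values. The nearest were Plac8, at 0.19 log2 units, Mir7058 (0.24), Wfdc17 (0.26), Trem2 (0.27), Ly86 (0.28), Lmod2 (0.28), Clec12a (0.30) and Fcer1g (0.31). Plac8 stood at 10.5, 6.88 and 8.14 FPKM in WT and 52.7, 13.8 and 21.6 FPKM in mutants, close to the Spp1 series. Trem2, a lipid-sensing receptor of macrophages, stood at 1.54, 0.93 and 1.30 FPKM in WT and 11.9, 2.40 and 3.09 FPKM in mutants. Ly86, a partner of a Toll-like receptor homologue, and Fcer1g, the common Fc receptor gamma chain, are expressed in myeloid cells, and Lmod2 encodes an actin nucleator of heart muscle. Mir7058, a microRNA gene, was listed at 0 in all WT libraries and at 5.85, 1.73 and 3.13 FPKM in mutants. Their order among the mutants follows from how they were chosen. No receptor gene was close to Spp1 by this measure, the nearest being Itga4 at 0.84 log2 units. The values were centred but not scaled, so a gene with a small fold change lies far from Spp1 whatever its order among libraries. Cd44 had Apol10b (0.10), Fstl1 (0.11), Myrf (0.12) and Pam (0.12) as its nearest genes.

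As a sum, macrophage and monocyte markers were higher in the same libraries as Spp1. Their sum over 14 genes was 221.9 to 269.2 FPKM in WT and 730.2, 353.7 and 531.9 FPKM in mutant replicates 1 to 3, in the order of the Spp1 values. Of the 14 genes 4 rose (Lyz2, Fcgr1, Ccr2 and Ly6c2), none fell and 10 were not called (limma), where 0.744% of all genes rose and 4.85% fell. The median log2 fold change was 1.01, and Itgam stands in this list too. In 8 of the 14 the mutant values all lay above the WT values, as in 6.85% of all genes. In the others the groups overlapped. Cd68, a macrophage lysosomal protein, was at 69.1, 14.7 and 25.2 FPKM in mutants, the second of which lay inside the WT range of 12.0 to 16.5 FPKM. Relative to the WT mean Cd68 was at 5.09, 1.08 and 1.86 times and Trem2 at 9.49, 1.91 and 2.46 times in the 3 mutants, against 7.50, 2.02 and 3.33 times for Spp1. Gpnmb, a glycoprotein of lipid-laden macrophages, was not called, at 1.43, 0.85 and 0.72 times. The log2 ratio of Spp1 to the summed list was -5.21, -5.42 and -5.45 in WT and -4.06, -4.90 and -4.77 in mutants, so Spp1 was higher relative to the list in 3 of 3 mutants by 0.78 (exact 2-sided permutation p = 0.1, the smallest that 3 against 3 can give). This ratio was added after the values were seen, and Lyz2 alone made up 421.3, 201.5 and 327.4 FPKM of the list's sum in the 3 mutants. Single markers differed from the sum: the mutant mean was 4.62 times the WT mean for Trem2 and 9.78 times for Ly6c2, against 4.28 times for Spp1. Leaving out any 1 library moved the group difference in the log2 ratio of Spp1 to the list between 0.52 and 0.94. The cells that made the Spp1 RNA cannot be told apart in whole tissue.

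**Figure D5:**
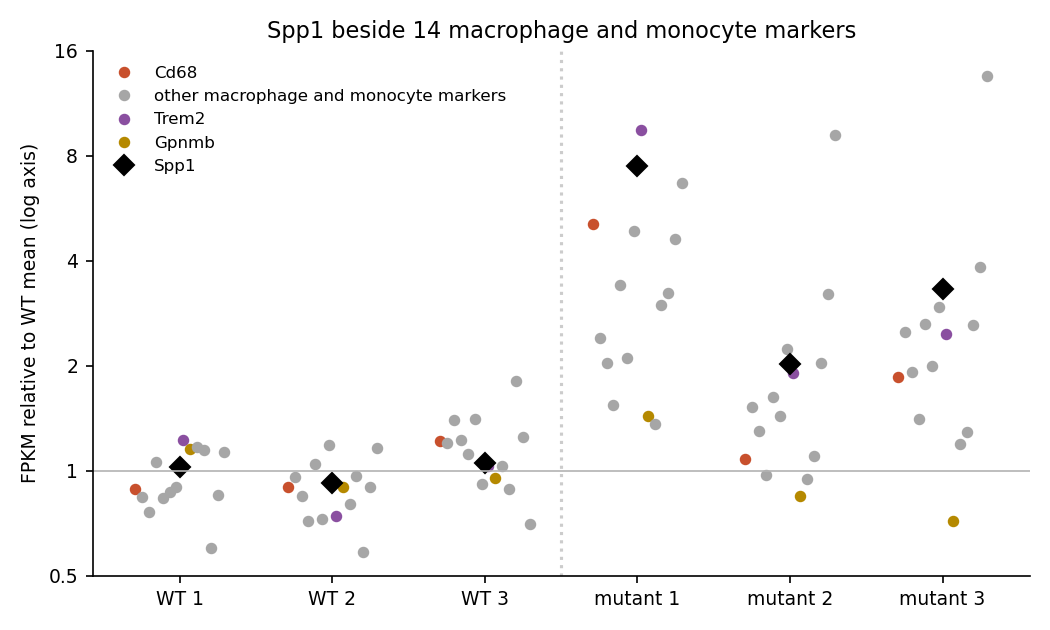
FPKM relative to the WT mean (log axis) of Spp1 (black diamonds) and of 14 macrophage and monocyte markers (dots; Cd68, Trem2 and Gpnmb in colour) in each library. Spp1 lies at 7.50, 2.02 and 3.33 in mutants 1 to 3, within the range of the markers in each mutant library.

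Other genes of the osteopontin pathway were described from lists of processing enzymes, competing ligands and signalling partners. Among the proteases that cleave osteopontin, 3 of 6 were tested, none was called and the median log2 fold change was 0.56. Mmp3, stromelysin, stood at 49.5, 45.9 and 53.1 FPKM in WT and 87.9, 72.2 and 62.5 FPKM in mutants, without overlap (log2 fold change 0.56; limma adjusted p = 0.128). Plau, urokinase, was at 8.23 and 15.3 FPKM (group means; log2 fold change 0.76; adjusted p = 0.240) and Mmp9, gelatinase B, had a log2 fold change of 0.28. F2, the prothrombin gene, known mainly as a liver product, was at most 0.09 FPKM. The related mineral-binding phosphoprotein genes Ibsp, Dmp1, Dspp and Mepe were all under the filter of a mean of 1 FPKM, Dspp and Mepe being listed at 0 in every library. Ibsp, bone sialoprotein, which also has an RGD site, was at 0.90, 1.05 and 0.93 FPKM in WT and at 0.32, 0.42 and 0.28 FPKM in mutants, without overlap. With no filter on low values it was called lower (log2 fold change -0.55 ± 0.078, SE; adjusted p = 0.0148 from limma), at levels near or under 1 FPKM.

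Of 14 other ligands of these integrins, all tested, none rose, 1 fell and 13 were not called, and the median log2 fold change was 0.37. Edil3, an RGD protein bound by alpha v integrins, was at 1.62, 1.88 and 2.17 FPKM in WT and fell to 0.63, 0.88 and 0.67 FPKM in mutants (log2 fold change -0.74; limma adjusted p = 0.0422). Leaving out whichever library ended that call (adjusted p 0.0559 to 0.154), as did a pseudocount of 0.1 (0.0519). Fn1, fibronectin, the main ligand of alpha 5 beta 1, stood at 385.8, 299.1 and 274.4 FPKM in WT and 431.0, 556.5 and 585.4 FPKM in mutants, without overlap (log2 fold change 0.71; adjusted p = 0.105). Vcam1, a ligand of alpha 4, was at 14.4 to 17.2 FPKM in WT and 26.4, 21.5 and 42.1 FPKM in mutants (log2 fold change 0.82; adjusted p = 0.134). Fbn1, whose product carries an RGD site too and is the gene mutated here, had a log2 fold change of 0.35 and overlapping groups; a missense allele need not change its level, so this does not check the labels.

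None of the 17 tested genes of integrin activation and adhesion signalling was called, and their median log2 fold change was 0.12. Fermt3, the kindlin of blood cells, stood at 2.59, 2.97 and 3.31 FPKM in WT and 11.02, 4.89 and 7.14 FPKM in mutants (log2 fold change 1.08; adjusted p = 0.0650). Parvg, the parvin of blood cells, had a log2 fold change of 0.97, and Parva, the parvin of smooth muscle and other adherent cells, one of -0.68 (adjusted p = 0.155 and 0.131). Tln2, a talin found in muscle and neurons, was at 7.50, 8.04 and 14.3 FPKM in WT and 3.32, 5.55 and 4.2 FPKM in mutants (log2 fold change -1.0; adjusted p = 0.0961). Groups did not overlap for these 4, which were named for their small p, and for Tln1, the widely expressed talin: 3 of the 17 were higher and 2 lower, where 6.85% and 13.1% of all genes were.

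None of the 12 tested genes of hyaluronan metabolism and CD44 partnership was called, with a median of 0.16. Cd74, the invariant chain, which uses CD44 as a co-receptor, stood at 127.1, 282.9 and 118.9 FPKM in WT and 458.2, 247.0 and 461.6 FPKM in mutants, overlapping (log2 fold change 1.20; adjusted p = 0.178). Srgn, serglycin, a CD44-binding proteoglycan of blood cells, had a log2 fold change of 0.41, Mmp14, a protease that cuts CD44, one of 0.41, and Cemip2, a hyaluronidase of the cell surface, one of 0.22. Of transcription factor genes known to act on Spp1, 9 of 12 were tested and none was called, with a median of 0.10. Ets1 and Hif1a had log2 fold changes of 0.35 and 0.16, Mitf one of 0.14 and Fos one of -0.38. Runx2, the Runx factor of bone, was too low to be tested, with WT values of 0.38 to 0.99 FPKM and mutant values of 0.79 to 1.27 FPKM.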

How the data were processed

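Poly(A) RNA of aortic tissue was sequenced in 3 WT and 3 Fbn1C1041G/+ samples, per the labels. Gene-level FPKM, rounded to 2 decimals, is what the authors deposited, per the file headers. The genome build is mm9 per the submitters' processing notes, and the sources used here name no aligner or quantifier. Columns were mapped to samples by name, with 0 left unmapped, and genes were named through a RefSeq table (21059 of 21117 matched). Depth was estimated from the steps of values of single-transcript genes, of which 75.8% to 79.6% lay within 0.2 of a whole fragment at the best-fitting depth. That depth was picked by the fit itself, so these shares do not test it. The transcript lengths used came from a GRCm38 annotation, not from mm9. Since no label says that the samples came from separate animals, p-values cover the variation among the 6 samples alone, which may be technical. No 2 libraries shared more than 1.83% of their non-zero values.

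Genes averaging 1 FPKM or more (13438 of 21117, all 10 members among them) were compared on log2(FPKM + 1), a scale that understates the change of low genes, with limma 3.58.1 in R 4.3.3 (trended moderation, 2-sided, Benjamini-Hochberg over all genes tested, threshold 0.05), after a check on simulated data. Exact permutation tests were used for within-library ratios. The members and gene lists were chosen with earlier results of these data known. Named were all members, up to 4 tested genes of each pathway list with the smallest p, the sum and first gene of each cell type list, and the 8 and 4 genes most like Spp1 and Cd44; other genes named were chosen after their values were seen. The result of 1 cell type list is not reported here. Alternatives were 2 other pseudocounts, 2 other filters, 2 scalings, 2 moderations, sample weights, a replicate block and each library left out. Corrections for GC content and transcript length (loess, span 0.3) were added after the data were seen.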

Additional observations from a re-analysis of the deposited data

How the results depend on the processing

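The count of the 10 genes called higher was 1, always Spp1, in place of 0 with sample weights, with the replicate number as a block and after the length correction, and was 0 to 1 with single libraries left out; none was called lower under any alternative. With the block the adjusted p of Spp1 was 0.0330 and with sample weights 0.0216, while that of Edil3 with the block was 0.0996. Over all genes, 100 were called higher and 652 lower, against 33 and 349 with a filter at a mean of 5 FPKM, which tests fewer genes and not Itga4, and 285 and 1011 with sample weights. With single libraries left out these counts were 37 to 192 and 389 to 751, and with the block 112 and 586. The deviations of same-numbered samples had correlations of 0.255, -0.0242 and 0.0968, against -0.188 to 0.0969 for differently numbered pairs. Not every sample correlated best with its own number, and whether the numbers mark a batch or a pairing was not tested.

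Near 0, signs turned. The log2 fold change of Itga8 was 0.0067 with median-ratio scaling and 0.27 with sample weights, and that of Itgav was -0.0082 with sample weights. With single libraries left out Itgav ranged from -0.093 to 0.17, Itgb1 from -0.012 to 0.35, Itgb3 from -0.11 to 0.49, Itga8 from -0.23 to 0.29, Itga9 from -0.13 to 0.21 and Hif1a from -0.013 to 0.34. The group difference in the log2 ratio of Itgb3 to Itgb5 ranged from -0.48 to 0.30, in the Itgav share from -0.36 to 0.063 percentage points and in the Itgb1 share from -4.38 to 0.88. Spp1, Cd44, Itgb5, Itga4 and Itga5 kept a positive sign throughout, wherever a value could be had. The cause of these shifts was not tested. With 3 samples a group, only large differences pass, and counting error was not modelled because the values are FPKM.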
